A study of Mus musculus with 12 samples.

Results

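The ADAM and ADAMTS families are zinc metalloproteases, and their genes were followed here in HT22 cells, an immortalized line of mouse hippocampal neurons, treated with mesaconitine (MA), a diterpenoid alkaloid of Aconitum plants. The members are the genes whose symbol is Adam, Adamts or Adamtsl followed by a number and, for some, a letter. The expression table lists 58 of them among 25239 genes, and the table of N6-methyladenosine (m6A) sites holds 13 peaks on 11 of them among 2643 peaks. The paper reports a larger total of m6A peaks than this table holds. A member without a peak here may thus carry one that is not listed, and all peaks below means all listed peaks. The study cultured HT22 cells with 800 μM MA for 72 h or without MA as the control, and made 3 input and 3 anti-m6A immunoprecipitation (IP) libraries from each group, 12 in all. The 4 groups share this cell line, and nothing in the labels says whether the libraries of a group came from separate cultures, so the errors may hold technical spread only.

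Both tables are comparisons of the groups and hold no value of a single library. Expression is therefore given as the base mean (the mean normalized count over the compared libraries), the log2 fold change of MA over control with its standard error (SE), and the adjusted p of the DESeq2 comparison. The levels of the control and MA groups given below are the group means that the base mean and the fold change imply. A gene was called changed at an adjusted p under 0.05. The table does not say which group is the numerator or which libraries were compared. The comparison was taken as MA input against control input, and the sign was reversed because the study describes lysosome and autophagy genes as higher after MA, which holds for lysosome genes such as Lamp1 and Galc only with the reversed sign. The study's directions conflict on this, since those it gives for the m6A regulators, such as Virma and Rbm15b, follow the deposited sign. By qRT-PCR, a separate measurement, the study also reports higher levels of multiple autophagy genes after MA. Its primers included Rab7, Lamp1, Lamp2, Ctsb and Ctsd, which are higher after MA with the reversed sign. Its text does not name the genes that rose. Every direction of expression below rests on the reversal and would turn without it, while sizes and p-values would not. Over 2472 peaks Spearman's rho between the reversed change and the change in IP reads (log2, MA over control) was 0.28. The rho with the input reads was 0.01. With the set narrowed to clearly changed genes (p below 0.0001), 166 peaks remained. Their rho was 0.59 with the IP reads and 0.02 with the input reads. The expression changes thus tracked the IP reads and not the input reads, and whether the table compares input libraries was not tested. The peaks share libraries and some share a gene, and the values are a description only.

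ADAMs are anchored in the membrane and cut the outer parts of growth factors, receptors and adhesion proteins free from the cell surface, a process called shedding. ADAMTS proteases carry thrombospondin repeats, are secreted, and cut proteins of the extracellular matrix such as the hyalectans (aggrecan, versican, brevican and neurocan), procollagens and cartilage oligomeric matrix protein (COMP). ADAMTS-like proteins have the repeats without the protease domain, and in the brain the hyalectan-cleaving enzymes act on the matrix around neurons.

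HT22 is labelled as neuronal, and its markers were mixed. Of 10 neuronal markers, 4 were listed at 0 (Map2, Snap25, Gria2 and Prox1) and 7 had a base mean under 10, while Syn1 was at 710 and Tubb3 at 473. Of the 4 neuronal markers with an adjusted p, 2 were lower after MA, Tubb3 with a log2 change of -0.40 (adjusted p = 0.0145) and Syt1, whose base mean was 6.22 (adjusted p = 0.00452). Of 7 fibroblast and mesenchymal markers, 6 were above 10, including Col1a1 at 100160 and Col3a1 at 134804. After MA, 4 of the 6 with an adjusted p were lower. Over all genes with an adjusted p, 8.27% were called lower. For the other cell types, base means under 10 were found for 2 of 3 astrocyte, 3 of 4 microglial, 3 of 4 oligodendrocyte and 3 of 3 endothelial markers. The part of any change in cell state or make-up in the results below was not tested, and fewer cells of a kind cannot be told apart from less RNA per cell.

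Both m6A calls on the family fell in coding sequence, of Adamts7 and of Adamts3. Their sequences are shown because the results on m6A turn on them, together with the second peak of Adamts3 and the peaks of Adamts6 and Adam17, which had the smallest p-values among uncalled single-exon peaks. They are the exonic bases of GRCm38 on the RNA strand, 5′ to 3′ with T for U. The capitals mark the DRACH motif in which m6A is usually found, that is A, G or T, then A or G, then AC, then A, C or T, searched on the RNA strand only.
Adamts7: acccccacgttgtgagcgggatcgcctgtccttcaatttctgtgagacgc
Adamts3, first peak: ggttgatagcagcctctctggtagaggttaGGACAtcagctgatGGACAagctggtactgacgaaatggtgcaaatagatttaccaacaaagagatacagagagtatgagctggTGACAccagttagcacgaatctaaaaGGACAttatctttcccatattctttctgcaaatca
Adamts3, second peak: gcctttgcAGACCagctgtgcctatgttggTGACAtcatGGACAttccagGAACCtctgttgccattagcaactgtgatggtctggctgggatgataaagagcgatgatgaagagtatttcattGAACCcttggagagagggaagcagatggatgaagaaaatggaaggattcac
Adamts6: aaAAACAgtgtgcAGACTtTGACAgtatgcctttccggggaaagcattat
Adam17: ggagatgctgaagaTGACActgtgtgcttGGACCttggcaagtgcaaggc

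The Adamts7 peak lies on the plus strand at chr9:90197155-90199755, a span that holds an intron and covers 50 coding bases of exons 23 and 24 of 24. It held 0 DRACH matches. The first Adamts3 peak, on the minus strand at chr5:89861609-89882871, covers 175 coding bases of exons 1 to 3 of 22 and held 4 matches. The second, at chr5:89775352-89861383, covers 175 coding bases of exons 3 and 4 and held 5. The Adamts6 peak (plus strand, chr13:104413739-104413788) is in coding exon 14 of 24 and held 3 matches, and the Adam17 peak (minus strand, chr12:21332135-21332184) is in coding exon 15 of 20 and held 2.

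Of the 58 members, 27 were listed at 0 and 31 had a base mean above 0 with a p-value. An adjusted p was given for 25 of these. The 6 below that limit had base means up to 3.62, and the lowest base mean with an adjusted p in the whole table was 3.63. Among the 25 members, 6 were lower after MA (Adamts5, Adamts1, Adamts4, Adamts2, Adamts6 and Adamts16), 2 were higher (Adamts7 and Adamtsl5) and 17 were not called. Over all 13427 genes with an adjusted p, 8.27% were called lower and 7.07% higher. The median log2 change was -0.20 over the 25 members and -0.01 over all genes with an adjusted p. All 8 called members were secreted proteins of the ADAMTS and ADAMTS-like branches. The DESeq2 comparison called no ADAM gene, and 2 ADAM genes had an unadjusted p under 0.05, Adam19 and the low Adam21, for which no adjusted p was given. The ADAM genes with an adjusted p were 6 membrane ADAMs, 2 of the nervous system and 5 mainly of testis. Several of them had low base means and wide errors. At the shares over all genes few calls would fall among so few genes, and a difference between the branches was not tested.

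**Figure D1:**
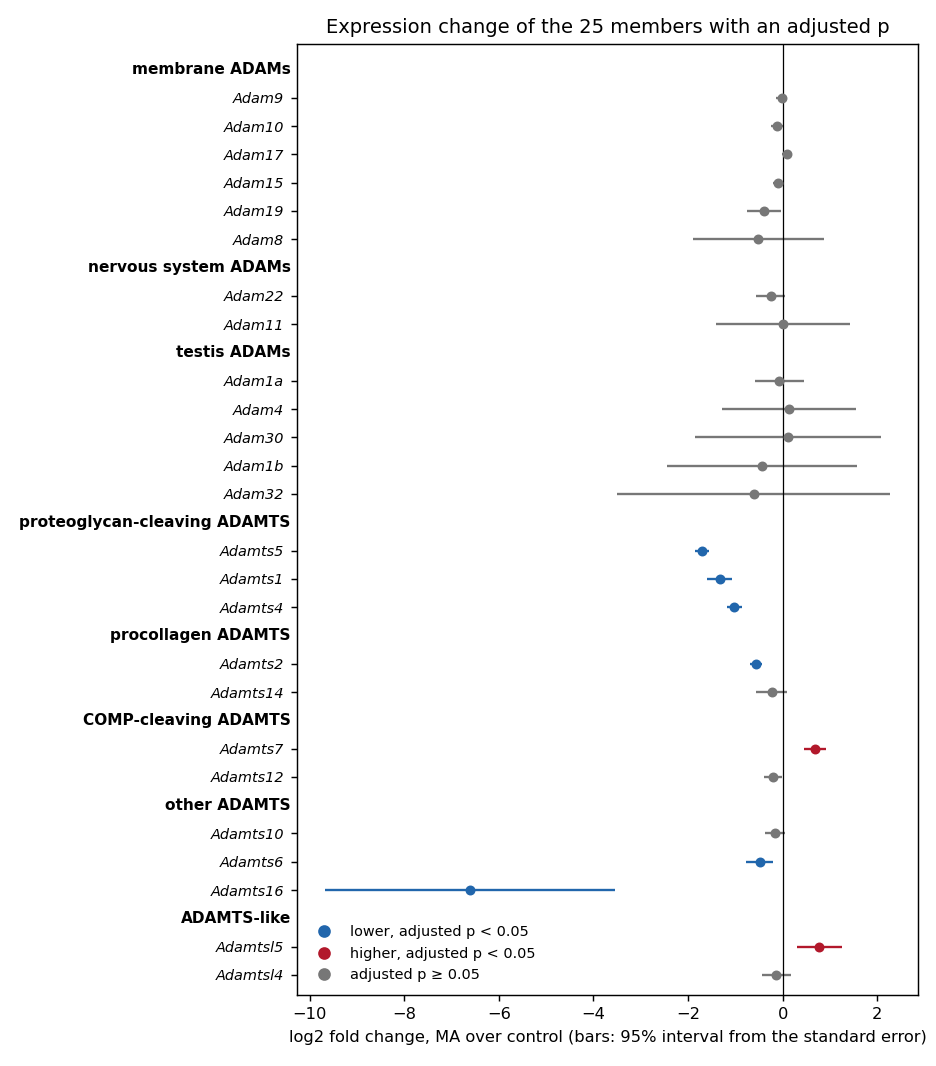
Log2 fold change of MA over control (horizontal axis) for the 25 members with an adjusted p, grouped by role and ordered by base mean within each group. Points are the fitted changes and bars their 95% intervals from the standard error; the proteoglycan-cleaving Adamts5, Adamts1 and Adamts4 lie at -1.70, -1.33 and -1.02 with narrow bars, whereas members with a low base mean have wide ones.

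The proteoglycan-cleaving ADAMTS genes with an adjusted p fell. Of the 7 genes of this group, 3 had an adjusted p and all 3 were lower, beside 8.27% called lower over all genes with an adjusted p. Adamts5, a main aggrecan-cleaving enzyme, went from 14225 normalized counts in control cells to 4369 after MA. Its log2 change was -1.70 (SE 0.08, 95% interval -1.85 to -1.55, adjusted p = 1.55e-105), a level 3.26-fold lower, and it ranked 5 by p-value among all genes tested. Adamts1, which cleaves versican and aggrecan, went from 9332 to 3715, a log2 change of -1.33 (SE 0.13, interval -1.59 to -1.07, adjusted p = 9.36e-21) or 2.51-fold. Adamts4, the other main aggrecan-cleaving enzyme, went from 3766 to 1851, a log2 change of -1.02 (SE 0.08, interval -1.18 to -0.87, adjusted p = 2.11e-34) or 2.03-fold. The interval of Adamts5 did not overlap that of Adamts4, while that of Adamts1 overlapped both. The difference between these changes was not tested.

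Adamts1 and Adamts5 are neighbors on the minus strand of chromosome 16, at chr16:85793827-85803113 and chr16:85856173-85901828 (GRCm38), 53.1 kb apart with 0 coding genes between them. Adamts4 lies alone on the plus strand at chr1:171250421-171260637. No stretch of 50 bases of the longest coding transcript of these 3 genes occurred in a transcript of another gene. Of the rest of the group, Adamts20 had a base mean of 0.710 and no adjusted p, and Adamts8, Adamts9 and Adamts15 were listed at 0. Adamts8 and Adamts15 are also neighbors, 20.1 kb apart on chromosome 9.

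The procollagen N-propeptidases trim the amino-terminal propeptide from fibrillar procollagens. Adamts2 (chr11:50602084-50807573, plus strand), which processes the fibrillar procollagens of skin, went from 3904 to 2645 normalized counts. The log2 change was -0.56 (SE 0.06, interval -0.69 to -0.44, adjusted p = 4.74e-16), a level 1.48-fold lower. Adamts14, with a related activity, had a log2 change of -0.23 (SE 0.17, interval -0.57 to 0.10, adjusted p = 0.442) from a base mean of 472. Its interval held both no change and the value of Adamts2, so at this precision the 2 genes could not be placed apart. Adamts3, which acts on procollagen in cartilage and on the growth factor VEGF-C, was listed at 0 in the expression table although reads were counted in its m6A peaks.

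Adamts7 and Adamts12 are close relatives that both cleave COMP, and they did not share a call. Adamts7 (chr9:90163069-90208071, plus strand) went from 2187 to 3518 normalized counts. It rose by a log2 change of 0.69 (SE 0.11, interval 0.46 to 0.91, adjusted p = 7.88e-08), a level 1.61-fold higher. Adamts12 had 1480 normalized counts in control cells and 1285 after MA, with a log2 change of -0.20 (SE 0.10, interval -0.39 to -0.02, unadjusted p = 0.033, adjusted p = 0.152). The intervals of the 2 genes lay on either side of 0 and did not overlap, but the difference between the changes was not tested. Adamts7 shares 122 exonic bases with Tbc1d2b on the opposite strand, whereas no overlap was annotated for Adamts12, and whether the counting used strand is not given in the sources used here.

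Among the other ADAMTS genes, Adamts6 and Adamts10 are linked to fibrillin microfibrils. Adamts6 (chr13:104287835-104496695, plus strand) went from 919 to 657 normalized counts, a log2 change of -0.48 (SE 0.15, interval -0.77 to -0.19, adjusted p = 0.0105). Adamts10 had a log2 change of -0.16 (SE 0.11, interval -0.38 to 0.06, adjusted p = 0.413) from a base mean of 1008. Adamts16 (chr13:70727802-70841811, minus strand) was called lower from a base mean of 9.22. Its fitted log2 change was -6.60 (SE 1.56, adjusted p = 0.000417), with implied sums over 3 libraries of 54.8 normalized counts in control cells and 0.564 after MA. The MA sum is below 3 counts, so the fitted fold is no measure of how far the level fell. Adamts17, Adamts18 and Adamts19 were listed at 0, as was Adamts13, which cleaves von Willebrand factor in blood.

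Of the ADAMTS-like genes, whose products bind microfibrils and matrix without cutting them, Adamtsl5 (chr10:80339110-80348412, minus strand) was higher. It went from 609 to 1041 normalized counts, a log2 change of 0.77 (SE 0.24, interval 0.30 to 1.25, adjusted p = 0.0129) or 1.71-fold. Adamtsl4 had a log2 change of -0.13 (SE 0.16, interval -0.44 to 0.18, adjusted p = 0.711) from a base mean of 408. Adamtsl1 had a base mean of 1.2 and no adjusted p, and Adamtsl2 and Adamtsl3 were listed at 0.

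The membrane ADAMs included the family's highest level and had no call in 6 genes with an adjusted p. Over all genes with an adjusted p, 8.27% were called lower and 7.07% higher. At these shares a set of 6 genes may well hold no call. Per kilobase of the longest coding transcript, the base mean of Adam9 was 2710, at percentile 94.1 of all genes with a base mean above 0. The order below Adam9 differed between the groups. In control cells the implied levels per kilobase were 1911 for Adamts1, 1786 for Adam15, 1463 for Adam10, 1365 for Adam17 and 1318 for Adamts5. After MA they were 1677 for Adam15, 1447 for Adam17, 1349.9 for Adam10, 761 for Adamts1 and 405 for Adamts5, so Adamts1 went from above Adam15, Adam10 and Adam17 to below them. No spread over libraries was available for these orders. Adam10 and Adam17 are the main sheddases of Notch receptors, the amyloid precursor protein, TNF and ligands of the EGF receptor.

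The precision for the abundant sheddases was high. Adam9 had 11043 normalized counts in control cells and 10873 after MA, a log2 change of -0.02 with a 95% interval of -0.13 to 0.09 (adjusted p = 0.885). Adam10 had 6717 and 6200, a change of -0.12 with an interval of -0.24 to 0.01 (adjusted p = 0.259). Adam17 had 6101 and 6466, a change of 0.08 with an interval of -0.02 to 0.19 (adjusted p = 0.332). Adam15, an adhesion protein and protease, had 5312 and 4988, a change of -0.09 with an interval of -0.20 to 0.02 (adjusted p = 0.342). Log2 changes below -0.24 or above 0.19 lay outside the intervals of all 4. Adam17 shares 311 and Adam15 1263 exonic bases with a gene on the opposite strand.

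Adam19, which sheds neuregulin, had 1111 normalized counts in control cells and 848 after MA, a log2 change of -0.39 (SE 0.18, interval -0.75 to -0.03, unadjusted p = 0.0352, adjusted p = 0.158). It missed the threshold after adjustment, and 1067 of its exonic bases lie opposite annotated antisense genes. Adam8, best known in leukocytes, had a base mean of 33.5 and a change of -0.51 (SE 0.71, adjusted p = 0.756), too imprecise to place. Adam33 had a base mean of 1.52 and no adjusted p, and Adam12 and Adam28 were listed at 0.

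**Figure D2:**
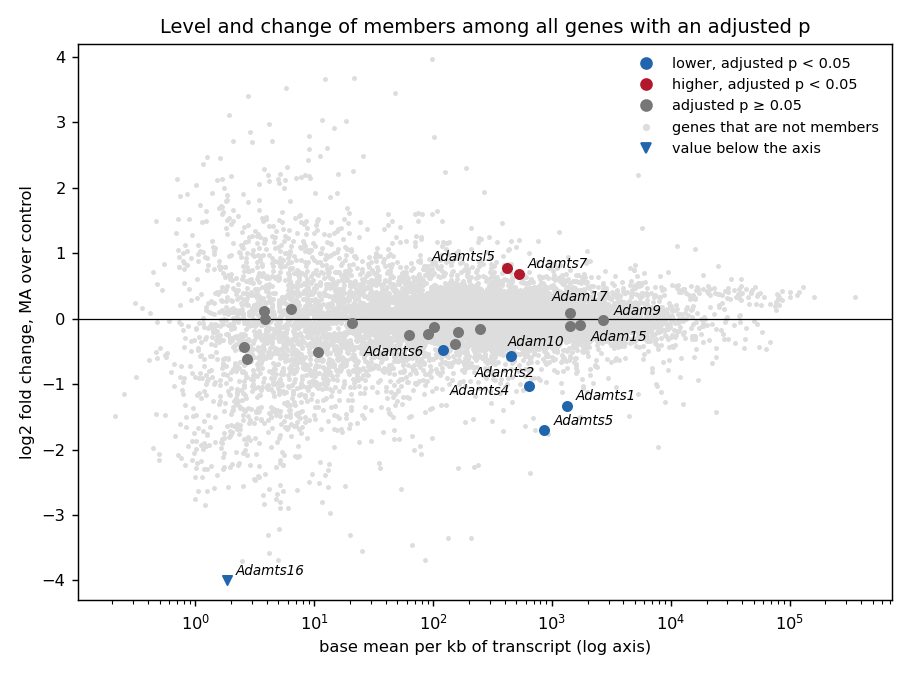
Base mean per kilobase of transcript (horizontal log axis) against the log2 fold change of MA over control (vertical axis) for the 25 members and 12984 other genes with an adjusted p. Called members and the 4 abundant ADAMs are named, a triangle marks Adamts16 at -6.60 below the axis, and 112 other genes beyond the axis range are not drawn; the 4 ADAMs lie close to 0 while Adamts5, Adamts1 and Adamts4 lie near the lower edge of genes of similar level.

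The 3 ADAMs of the nervous system lack a working zinc site and act as adhesion partners or receptors, with Adam22 and Adam23 binding LGI proteins at synapses. Adam22 had 633 normalized counts in control cells and 531 after MA, a log2 change of -0.25 (SE 0.16, interval -0.57 to 0.06, adjusted p = 0.337). Adam11 had a base mean of 19.8 and a change of 0.00 (SE 0.72, adjusted p = 0.9997), and Adam23 was listed at 0. The ligand genes Lgi1, Lgi2 and Lgi3 were listed at 0 as well, and Lgi4 had a base mean of 0.658.

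Of the 22 ADAMs known mainly from testis and epididymis, where several take part in sperm maturation and binding to the egg, 14 were listed at 0. Among the 8 with a base mean above 0, only Adam1a was above 50, at 100.2. Every 50-base stretch of its longest coding transcript (100%) also occurred in transcripts of other genes, and it overlaps Mapkapk5 on the same strand, so its count cannot be assigned to Adam1a alone. Adam4, Adam30, Adam1b and Adam32 had base means of 15.9, 13.3, 8.55 and 6.72, with SEs between 0.72 and 1.47 and no call. The share of stretches found elsewhere was 32.4% for Adam1b and 17.4% for Adam4. Adam21, Adam5 and Adam3 had base means of 3.62, 1.64 and 0.524 and no adjusted p. For Adam21 the implied sums over 3 libraries were 0.517 normalized counts in control cells and 21.2 after MA (unadjusted p = 0.00686).

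The testis genes listed at 0 were Adam2, Adam6a, Adam6b, Adam7, Adam18, Adam20, Adam24, Adam25, Adam26a, Adam26b, Adam29, Adam34, Adam34l and Adam39. Adam9 sits at the end of a run of such genes on chromosome 8. Adam18, Adam3, Adam5, Adam32 and Adam9 follow each other with gaps of 2.47, 1.24, 11.8 and 0.807 kb, and with 0 other coding genes in any gap. The base means along this run were 0, 0.524, 1.64, 6.72 and 10958, so the high level was limited to Adam9. An exact 0 in this table need not mean that a gene was silent. Of all 25239 genes 9061 (35.9%) were listed at 0, and 96 of them carried 103 m6A peaks, with up to 528 control input reads in a peak.

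**Figure D3:**
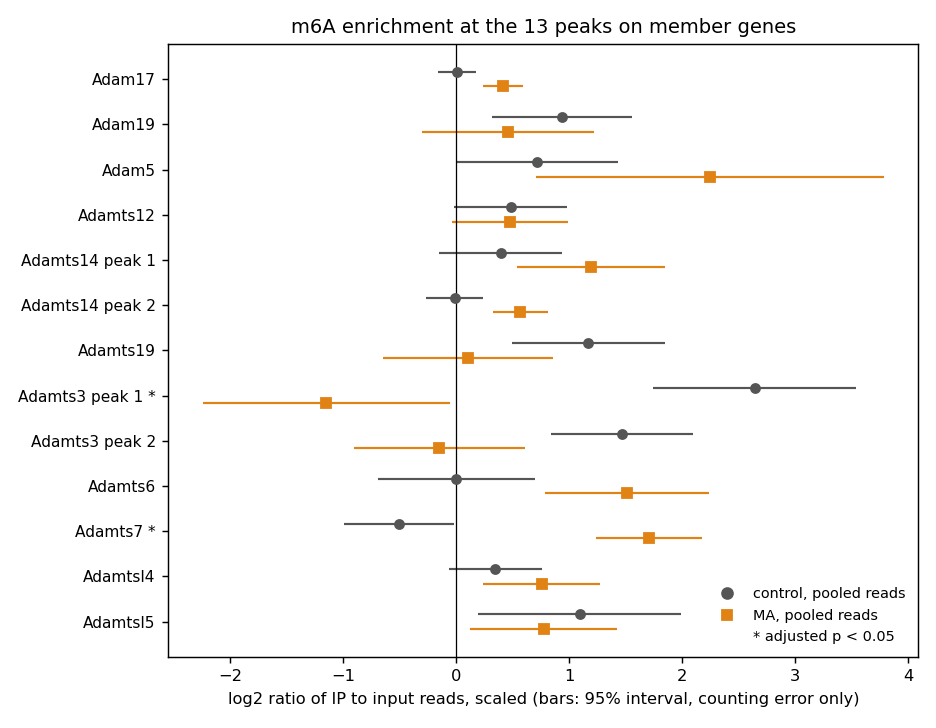
Log2 ratio of IP to input reads (horizontal axis), scaled for sequencing depth, at the 13 m6A peaks on member genes, computed from the reads pooled over the 3 libraries of each group. Circles are control and squares MA, bars are 95% intervals for counting error only, and stars mark an adjusted p under 0.05; Adamts7 moves from -0.51 to 1.71 and the first Adamts3 peak from 2.64 to -1.15.

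For m6A, the table gives reads pooled over the libraries of each group, the log2 ratio of IP to input reads and its change, with p-values from exomePeak2. The change is a fitted value that is often smaller than the plain difference of the ratios. Of the 13 peaks on members, 1 was called higher and 1 lower, beside 14.9% of all peaks tested called higher and 2.57% called lower. The median change was 0.23 over the 13 peaks and 0.20 over all peaks. Thus the family's peaks showed no common direction, with 7 positive and 6 negative values.

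The Adamts7 peak, without a DRACH match in the sequence shown, was the called rise. In control cells it held 97 input and 52 IP reads, a log2 ratio of -0.52, and after MA 47 input and 170 IP reads, a ratio of 1.71. The fitted change was 2.03 (adjusted p = 0.000301). IP reads were below input reads in control cells and above them after MA. Scaled by the reads in all peaks, the IP reads rose by 1.28 on the log2 scale, whereas the input reads at this peak had a log2 difference of -0.62. Expression of the whole gene rose by 0.69, so input reads at the peak and the expression table differed in direction, and the part of this in the m6A change was not tested.

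The first Adamts3 peak, with 4 DRACH matches, was the called fall. It held 12 input and 57 IP reads in control cells (log2 ratio 2.61) and 20 input and 10 IP reads after MA (ratio -1.12), with a fitted change of -3.01 (adjusted p = 0.00784). The second Adamts3 peak held 30 input and 63 IP reads in control cells and 28 of each after MA. Its ratio was 1.46 in control cells and -0.17 after MA, and its change of -0.95 was not called (adjusted p = 0.126). Both peaks had more IP than input reads in control cells and no excess after MA. With the gene listed at 0, no expression value stands beside them.

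Among the uncalled peaks, Adamts6, Adam17 and the second Adamts14 peak had unadjusted p-values under 0.05 with more IP relative to input after MA. Adamts6, whose expression fell, held 38 input and 29 IP reads in control cells and 20 and 63 after MA, with a change of 0.92 (adjusted p = 0.131). Adam17 had the deepest peak, with 623 input and 477 IP reads in control cells and 434 and 640 after MA. Its ratio moved from 0.00 to 0.41 with a change of 0.38 (adjusted p = 0.103). The second Adamts14 peak, in exons 14 and 15, held 294 and 222 reads in control cells and 215 and 353 after MA, a change of 0.50 (adjusted p = 0.134). The first, in exon 7, held 54 and 54 in control cells and 26 and 66 after MA, a change of 0.42 (adjusted p = 0.407).

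The remaining peaks had adjusted p-values between 0.333 and 0.981. Adam5 held 28 input and 35 IP reads in control cells and 4 and 21 after MA, a change of 0.47, although its base mean was 1.64. Adamts19, listed at 0 in expression, held 28 and 48 reads in control cells and 26 and 31 after MA, a change of -0.49. Adam19, with its peak in the 3′ untranslated region, held 35 and 51 in control cells and 23 and 35 after MA, a change of -0.21. Adamts12 held 62 and 66 in control cells and 50 and 77 after MA, a change of -0.01. Adamtsl4, with its peak also in the 3′ untranslated region, held 97 and 94 in control cells and 46 and 86 after MA, a change of 0.23. Adamtsl5, whose peak was placed on a retained-intron transcript, held 16 and 26 in control cells and 29 and 55 after MA, a change of -0.12. At these read numbers the counting intervals of the control and MA ratios overlapped for each of these 6 peaks.

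A DRACH match was found in 11 of the 13 peaks (84.6%), with Adamts7 and Adamtsl4 as the exceptions. It was found in 73.4% of the 2520 listed peaks that could be placed on a transcript. The density was 1.96 per 100 exonic bases in the members' peaks and 1.88 in all. A match is a description of letters, and the window without a match says nothing of bases beside it. The genomic span was over 1000 bases, and so crossed introns, for 6 of 13 member peaks (46.2%) and for 23.8% of all peaks.

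ADAM and ADAMTS activity depends on inhibitors, on convertases that remove the prodomain, on carriers to the cell surface and on clearance receptors. Of 26 such genes, 20 had an adjusted p. Of these, 4 were lower, 3 were higher and 13 were not called, with a median log2 change of -0.01. The shares called over all 13427 genes with an adjusted p were 8.27% lower and 7.07% higher. Timp3, the inhibitor with the broadest action on these families, had a change of 0.10 (SE 0.08, adjusted p = 0.514), and Timp2 of -0.13 (SE 0.07, adjusted p = 0.251). Timp1 fell by 0.47 on the log2 scale (SE 0.14, adjusted p = 0.00837), and so did the membrane-anchored inhibitor Reck by 0.39 (SE 0.13, adjusted p = 0.0189). The convertase Furin had a change of 0.06 (SE 0.09, adjusted p = 0.773).

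Over all genes with an adjusted p, 8.27% were called lower and 7.07% higher. Few calls among the carriers of the 2 main sheddases are thus no trait of theirs. Of 3 genes for Adam17 trafficking with an adjusted p, 1 was higher and 2 were not called. Of 5 tetraspanins for Adam10 trafficking with an adjusted p, 1 was higher and 4 were not called, with a median log2 change of 0.03. Base means under 10 were found for 3 of the 6 tetraspanins listed. Rhbdf2, an iRhom that takes Adam17 to the cell surface, rose by 0.40 (SE 0.13, adjusted p = 0.0202), whereas its relative Rhbdf1 had a change of -0.23 (SE 0.11, adjusted p = 0.133). Tspan5, a tetraspanin that takes Adam10 to the surface, rose by 0.27 (SE 0.07, adjusted p = 0.00137). Lrp1, the endocytic receptor that clears Adamts4 and Adamts5, fell by 0.15 (SE 0.04, adjusted p = 0.00656). Sdc4, a cell-surface proteoglycan linked to Adamts4 and Adamts5 and itself shed, fell by 0.60 (SE 0.07, adjusted p = 1.95e-17).

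**Figure D4:**
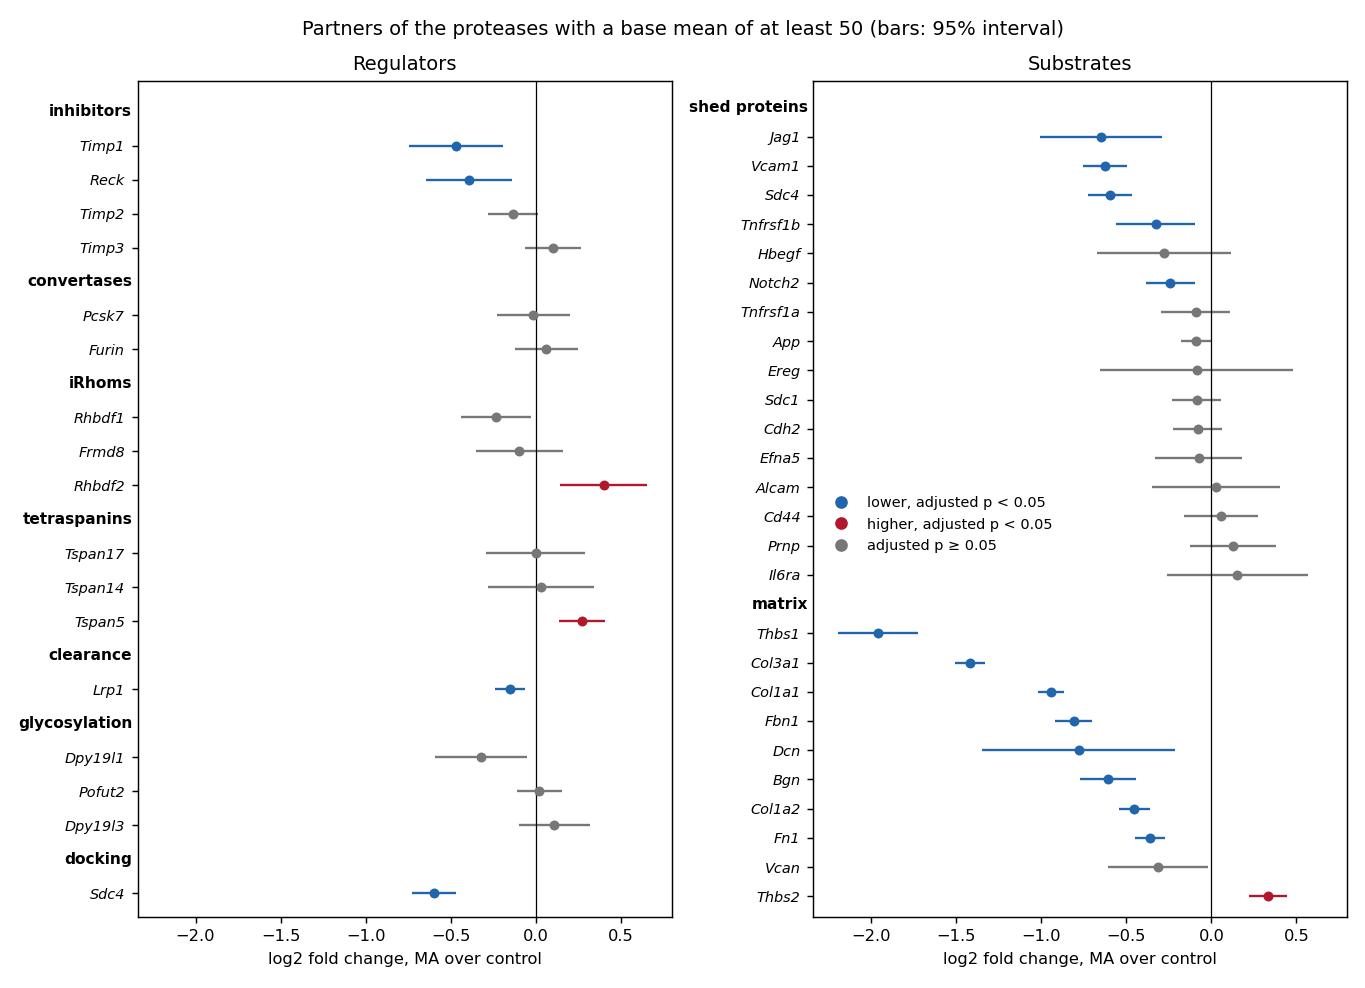
Log2 fold change of MA over control (horizontal axes) for regulators (left) and substrates (right) of the proteases with a base mean of at least 50, leaving out 1 regulator that is not reported here. Points are fitted changes and bars 95% intervals, colored by call; regulators lie on both sides of 0, whereas the matrix substrates lie mostly below it, from Thbs1 at -1.96 to Thbs2 at 0.33.

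Of 50 substrate and ligand genes, 32 had an adjusted p. Of these, 13 were lower, 1 was higher and 18 were not called, with a median log2 change of -0.26. Over all 13427 genes with an adjusted p, 8.27% were called lower and 7.07% higher. Among 28 shed membrane proteins, 19 had an adjusted p, and 5 were lower, with log2 changes from -0.65 for Jag1 to -0.24 for Notch2. None of them was called higher in the DESeq2 comparison, also not at an unadjusted p under 0.05. Of the 18 matrix substrates, 13 had an adjusted p, with 8 lower and 1 higher and a median of -0.45. The matrix glycoprotein Thbs1 fell by 1.96 (SE 0.12, adjusted p = 1.31e-56), while its relative Thbs2 rose by 0.33 (SE 0.06, adjusted p = 2.47e-07). Col3a1 and Col1a1, procollagens that Adamts2 trims, fell by 1.42 (SE 0.04, adjusted p = 1.56e-219) and 0.94 (SE 0.04, adjusted p = 3.44e-130). Fbn1, which forms microfibrils, fell by 0.81 (SE 0.06, adjusted p = 3.28e-44).

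The hyalectans themselves gave little to set beside their proteases, and they are named here as their substrates with the values known. Vcan, the hyalectan with a high level here, had a base mean of 6515 and a log2 change of -0.31 (SE 0.15, interval -0.61 to -0.02, adjusted p = 0.165), so it was not called while Adamts1, Adamts4 and Adamts5 were lower. Acan and Bcan were listed at 0, Ncan had a base mean of 5.72, and Comp, the shared target of Adamts7 and Adamts12, was listed at 0.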

How the data were processed

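MeRIP-seq of HT22 cells gave input and anti-m6A IP libraries of MA and control cells, 3 in each group. Per the paper's methods, reads were trimmed with fastp, aligned to mm10 with HISAT2 and quantified with StringTie, and the authors compared the groups with DESeq2 and called and compared m6A peaks with exomePeak2, which used a Poisson generalized linear model. Versions are not given in the sources used here.

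The deposited expression table of the authors holds DESeq2 output, namely a normalized signal (the base mean), a log2 fold change with its standard error, a Wald statistic, which is a score, and p-values. The deposited peak table of the authors holds read counts summed over the libraries of each group, log2 ratios of IP to input scaled by size factors from background regions, their change, and p-values. A count model was planned for values of single libraries. None were used, so the deposited tests were read, which makes the depth of each library and its spread unknown, and no p-value for peaks could be checked against the spread between libraries. Reads in all peaks summed to between 214778 and 359889 per group. Adjusted p-values that the table lacks were not filled in.

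Calculations used Python 3.11.15, pandas 2.3.3, numpy 2.4.6, scipy 1.17.1 and matplotlib 3.10.9 and were tested on simulated data. Expression intervals are the change ± 1.96 standard errors. Group levels are solved from the base mean and the fold change for groups of equal size. Peaks were placed on GENCODE M21 transcripts of GRCm38, where 57 of 58 members matched (Adam34l did not), and transcripts were cut into 50-base stretches to find sequence shared between genes. Intervals of peak ratios come from pooled reads and cover counting error only.

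Every member with a p-value is named, called members get fold change, standard error and adjusted p, and every member with a peak gets its reads. Of the lists of regulators and substrates, at most 4 called genes in each direction are named by the size of change, besides inhibitors, Furin, Lrp1, Rhbdf2, genes that complete a pair, and the ends of a range. The members, lists, markers and tests were chosen with earlier results of these data known. Alternatives were other thresholds, another adjustment, a minimum base mean, centring, and for peaks a p from pooled reads and a read minimum. A search for the zinc-binding motif in the proteins was not run. Items withheld from the text, among them a gene counted in the list of regulators, are not reported here or drawn.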

Additional observations from a re-analysis of the deposited data

How the results depend on the processing

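For expression, the 6 lower and 2 higher members gave the same calls with a fold over 1.2 added, with adjustment over every gene with a p-value and after centring on the median change. A fold over 1.5 lost Adamts2 and Adamts6 (4 lower), a base mean of at least 50 lost Adamts16 (5 lower), and an unadjusted p with a fold over 1.2 added Adam19 and Adam21 (7 lower, 3 higher). Over all genes the fold over 1.5 cut the calls from 1111 lower and 949 higher to 335 and 168, and centring gave 1019 and 1026. The lists of regulators and substrates were tried under 2 of these settings. The regulators had 4 lower and 3 higher in both, the same genes after centring, but with Dpy19l1 in place of Lrp1 at an unadjusted p with a fold over 1.2. The substrates lost Dcn and Tnfrsf1b after centring (11 lower) and exchanged Notch2 for Vcan at the unadjusted p. The peaks depended more on the setting. An unadjusted p with a fold over 1.2, and equally a p from the pooled reads, gave 2 lower and 4 higher, adding Adam17, Adamts6, the second peak of Adamts14 and the second of Adamts3. Centring on the median change of pooled reads gave 3 lower and 1 higher, adding Adamts19 and the second Adamts3 peak. At least 20 reads in each group left 0 lower, because the first Adamts3 peak has fewer, and 1 higher. Over all peaks these settings gave 157 lower and 665 higher, 234 and 854, 492 and 466, and 46 and 308, beside 68 and 394, where centring evens out the 2 directions by its construction. The Adamts7 peak was called higher in each of these settings. No paired analysis was possible because the tables hold no value of a single library, and leaving out a library was not run for the same reason. Reads per peak limit the m6A results, with control input reads between 12 and 623, and low base means limit the expression of the testis ADAMs.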
